A study of Homo sapiens with 55 samples.

Results

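Splicing in K562 cells was compared with splicing in 293T cells, using only the libraries that carried the control guide sgRenilla, which targets Renilla luciferase, a gene that human cells lack. These were 10 of the 55 samples of the series, and they formed 9 libraries, since the 2 sequencing runs of 1 library were averaged. K562 is an established human leukemia line with erythroid features and the BCR-ABL1 fusion. Its 7 control libraries came from 3 panels: 1 library of cells wild type (WT) for SF3B1 (run in the SF3B1 K700E knock-in panel), 3 libraries with overexpression of SRSF2 WT and 3 with overexpression of U2AF1 WT. 293T is a line derived from human embryonic kidney, and its 2 control libraries, labelled WT-1, came from a panel of their own. All 293T libraries were in 1 panel, so the cell line and the 293T panel cannot be told apart, and a difference was kept where it held against each of the 3 K562 panels. Nothing in the labels says that replicates came from separate cultures, so p-values measure the spread between these libraries, which may be technical.

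Alternative splicing lets a gene make several mRNAs by including or skipping a cassette exon, by moving a 5′ or 3′ splice site, by keeping an intron or by ending at another polyadenylation site. The choice depends on RNA-binding proteins such as the MBNL, RBFOX, PTBP and SR families, whose levels differ between tissues, so that blood, epithelial and neural cells carry characteristic exon patterns. Short cassette exons, often called microexons, are best known from neurons, where they mostly keep the reading frame and alter surfaces by which proteins bind each other. In red cell precursors, exons of the membrane skeleton genes, such as that of protein 4.1R for the spectrin and actin binding site, are switched during maturation.

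The files gave, for each event, the share of the isoform listed first, here called usage and given in percent. For a cassette exon it is the share that includes the exon, for a retained intron the share that is spliced, for an alternative 3′ or 5′ splice site the share with the shorter intron, for mutually exclusive exons the share with the upstream exon and for a tandem 3′ untranslated region the share with the shorter one. A value was present for 73.9 to 78.4% of events per library. The number of reads behind a value is unknown. Usage differed on average by 8.64 to 9.40 percentage points between a K562 and a 293T library, over 14 pairs. It differed by 4.57 to 7.37 points within a K562 panel, by 6.05 to 7.82 points between SRSF2 WT and U2AF1 WT libraries and by 6.21 points between the 293T libraries. The SF3B1 WT library stood 6.99 to 8.31 points from the other K562 libraries, against 8.64 points or more between the lines, and its 2 runs differed by 7.83 points. U2AF1 WT replicate 1 stood further from its own panel (7.24 and 7.37 points) than from the SF3B1 WT library (6.99 points), and results are given below with and without both.

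**Figure D1:**
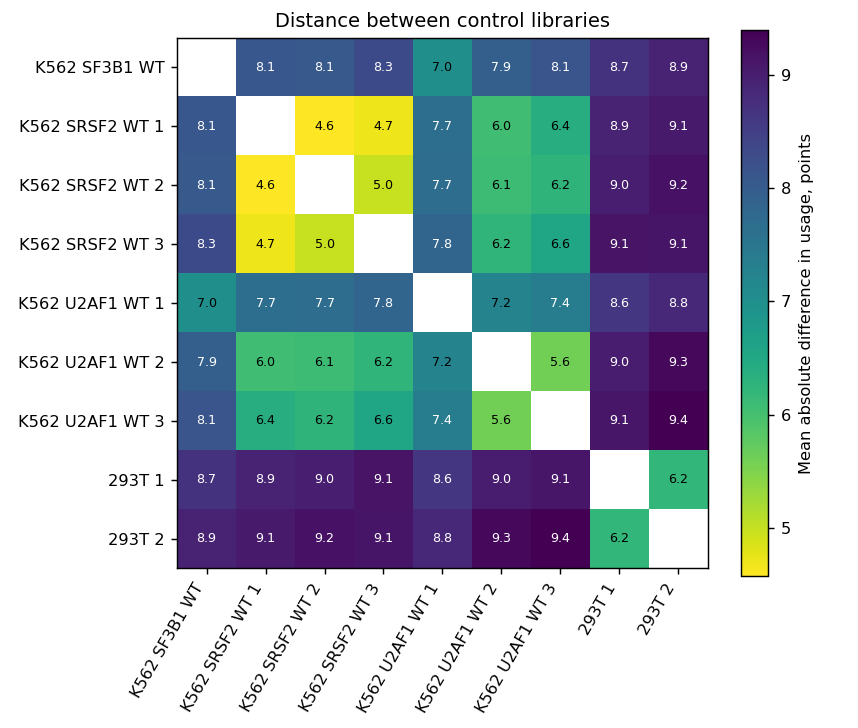
Mean absolute difference in usage, in percentage points over all tested events, for each pair of the 9 control libraries. The block of K562 against 293T pairs is the darkest (8.64 to 9.40), the SRSF2 WT libraries are the closest (4.57 to 4.98), and the SF3B1 WT library and U2AF1 WT replicate 1 stand apart from the other K562 libraries.

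The files held no gene levels, so the lines were checked by which marker genes had usage values. Events of the erythroid and blood genes GFI1B, HBE1, ALAS2, LYL1 and RHAG had values in K562 libraries and none in 293T. All 12 K562 markers with events had at least 1 event valued in every K562 library, against 5 of them in both 293T libraries. The kidney and neural markers EYA1, CDH2 and NEFM had values in 293T only, and 11 of 12 293T markers had an event valued in both 293T libraries, against 7 of them in every K562 library. Of 24 haematopoietic transcription factors with events, 21 had an event valued in every K562 library and 23 in both 293T libraries. BCL11A (0% of values present in K562, against 100% in 293T) and FLI1 (0% in K562, against 66.7% in 293T) had values in 293T only. PAX8, listed for kidney, went against its line too, with 51.8% of its values present in K562 and 0% in 293T. Of 5 genes listed for lymphocytes and fibroblasts, the lymphocyte and leukocyte genes CD3E and PTPRC had values for all events in K562 and none in 293T, while COL1A1 had values in both lines. The part of such transcripts in the results was not tested. Over all events, 2245 (704 named genes) had a value in every K562 library and in no 293T library, 3884 (1224 genes) in both 293T libraries and in no K562 library, and 72965 in all 9. A missing value does not tell absent transcripts from too few reads.

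Of 45501 events tested, 614 (1.35%) differed between K562 and 293T in each of the 3 K562 panels, with an adjusted p under 0.05 and at least 10 points each time (limma, Benjamini-Hochberg adjusted over all tested events). Usage of the first isoform was higher in K562 for 325 events (0.714%) and lower for 289 (0.635%). The median size of the mean difference was 33.1 points over the 614 events and 4.06 points over all tested events. In 93 events every panel differed by 50 points or more, 45 of them higher and 48 lower in K562. K562 and 293T libraries did not overlap in any of the 614 events, as in 9389 (20.6%) of all tested events. The 540 of these events with a gene name fell in 392 of 9643 named genes (4.07%), 304 genes had 1 such event and 31 genes had 3 or more.

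Taken panel by panel, 1296 events (2.85%) differed for the SF3B1 WT library, 4484 (9.85%) for SRSF2 WT and 3246 (7.13%) for U2AF1 WT, all against the same 293T libraries. Between K562 panels, where the line is the same, 638 events (1.40%) differed between SRSF2 WT and SF3B1 WT, 161 (0.354%) between U2AF1 WT and SF3B1 WT and 6 (0.0132%) between SRSF2 WT and U2AF1 WT. The single SF3B1 WT library was assumed to vary like the other groups, and it set the size of the list. Without it, and with only the SRSF2 WT and U2AF1 WT panels required, 2423 events passed. All 614 were among them, which the rule nearly ensures, since a single library adds nothing to the measured spread. Leaving out any other library gave 364 to 765 events, with 364, 376 and 378 without SRSF2 WT replicate 1, 2 and 3, 765 without U2AF1 WT replicate 1, and 459 and 377 without 293T replicate 1 and 2. Of the 614 events, 282 were among the 459 and 254 among the 377, so that most of the list lost its call on leaving out either 293T library. Between 346 and 364 remained without an SRSF2 WT replicate and 427 to 559 without a U2AF1 WT replicate. For single events below, fits that left out a library are these 8, in which all 3 K562 panels remained. Of the 614 events, 15 had a smallest panel difference of 10 to 11 points, and 21 further events met the p threshold and sign with 9 to 10 points.

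Cassette exons made up 336 of the 614 events, 1.6% of the 21021 tested, with 164 higher and 172 lower in K562. Retained introns gave 48 of 3756 (1.28%), of which 34 were more often spliced in K562 and 14 less often, whereas over all tested retained introns 1743 were higher and 2000 lower in K562. Alternative 3′ splice sites gave 113 of 10667 (1.06%), with the upstream site used more in K562 in 71 and less in 42, whereas over all tested 4900 were higher and 5741 lower. Alternative 5′ splice sites gave 46 of 4535 (1.01%), 19 higher and 27 lower. Mutually exclusive exons gave 41 of 3611 (1.14%), 17 higher and 24 lower, and tandem 3′ untranslated regions 30 of 1911 (1.57%), 20 with more and 10 with less of the shorter form in K562. All 6 types stood between 1.01 and 1.6%, against 1.35% over all events.

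**Figure D2:**
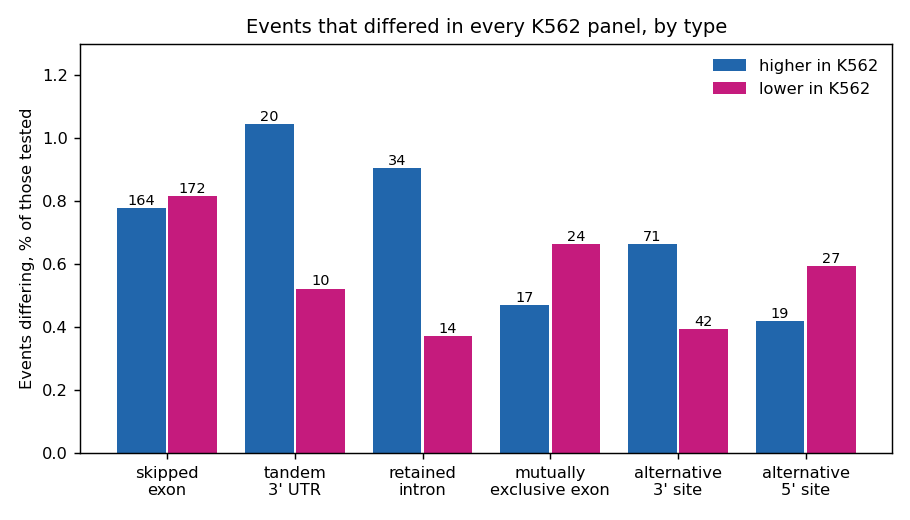
Events that differed in each of the 3 K562 panels, as percent of the tested events of each type, higher in K562 (blue, left) and lower in K562 (pink, right), with counts above the bars. Cassette exons gave most events in both directions (164 and 172), and retained introns had more events higher (34) than lower (14).

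LGALS8 encodes galectin-8, a sugar-binding lectin. Its 120-nt coding exon (chr1:236540564-236540683, GRCh38, + strand) was included in 96 to 99% of transcripts in K562 (median 98), against 5 and 9% in 293T. The difference was at least 89 points in each panel (log2 ratio 8.29 ± 0.37 SE, largest of the 3 adjusted p = 0.00158 by limma). VAV1 encodes a guanine nucleotide exchange factor that works in blood cells. Its 96-nt coding exon (chr19:6822419-6822514, + strand) had 81 to 96% inclusion in K562 (median 92), against 8 and 16% in 293T, a difference of at least 69 points (adjusted p = 0.0276). VAV1 passed in 2 of the 8 fits that left out a library (lost without SRSF2 WT replicate 1, 2 or 3, U2AF1 WT replicate 2 or either 293T replicate), where its smallest difference was still 65 points. BCAS4 had 96 to 99% inclusion of a 394-nt exon in K562, against 22 and 25% in 293T. RWDD3, which enhances SUMO conjugation, had 64 to 81% of a 113-nt exon of a noncoding transcript in K562, against 1 and 5% in 293T.

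The exons are shown with their neighbouring bases as spliced, since these 3 coding exons had among the largest differences in inclusion. Capitals mark the exon and lower case the flanking 15 bases of the neighbouring exons, 5′ to 3′, from GENCODE 29 transcripts on GRCh38. The ABI1 exon (chr10:26755655-26755741, - strand) is the one lower in K562.
LGALS8: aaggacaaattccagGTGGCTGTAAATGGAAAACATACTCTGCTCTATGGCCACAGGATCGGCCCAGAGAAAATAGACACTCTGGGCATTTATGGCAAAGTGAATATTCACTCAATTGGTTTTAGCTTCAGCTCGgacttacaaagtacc
VAV1: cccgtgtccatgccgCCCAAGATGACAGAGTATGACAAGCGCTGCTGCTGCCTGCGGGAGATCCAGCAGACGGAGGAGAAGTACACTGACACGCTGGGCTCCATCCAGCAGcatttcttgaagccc
ABI1: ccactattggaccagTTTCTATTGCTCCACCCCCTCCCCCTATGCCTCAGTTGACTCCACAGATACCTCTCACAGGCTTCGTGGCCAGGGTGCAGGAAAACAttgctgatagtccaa

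ABI1 encodes Abl interactor 1, a subunit of the WAVE complex that drives actin branching. Its 87-nt coding exon had 5 to 14% inclusion in K562 (median 7), against 80 and 89% in 293T, a difference of at least 74 points in each panel (log2 ratio -5.75 ± 0.43 SE, largest adjusted p = 0.00742 by limma). The largest difference of all was at a 5′ splice site of DGLUCY, the mitochondrial D-glutamate cyclase. The form with 15 more coding nucleotides (chr14:91170187-91170201, + strand) had 1 to 5% usage in K562, against 96 and 97% in 293T. ERBB2, a receptor tyrosine kinase of epithelial cells, included a 152-nt exon at 4 to 15% in K562, against 84 and 88% in 293T, and lost its call without 293T replicate 2 (smallest difference then 72 points). LCP1 encodes L-plastin, an actin bundler of leukocytes. Its 82-nt exon of the 5′ untranslated region had 0 to 1% inclusion in K562, against 59 and 80% in 293T. WARS is the cytosolic tryptophanyl-tRNA synthetase. The upstream member of a pair of its exons listed as mutually exclusive had 1 to 13.5% usage in K562 (median 2), against 90 and 90% in 293T, and it lost its call without either 293T replicate (smallest difference 76.5 points).

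At alternative splice sites, FAM126A, which helps to recruit a phosphatidylinositol 4-kinase to the plasma membrane, used the shorter intron at 9 to 15% in K562, against 94 and 96% in 293T. TYSND1, a peroxisomal protease, did so at 1 to 7% in K562, against 77 and 97% in 293T. RAD51AP1, a DNA repair protein, used the upstream of 2 acceptors 78 nt apart at 20 to 42% in K562 (median 28), against 97 and 99% in 293T, a difference of at least 65 points (adjusted p = 0.00444). TOR1AIP1 encodes LAP1, a protein of the inner nuclear membrane. It has tandem acceptors 3 nt apart in its coding sequence (chr1:179889310-179889312, + strand), and the upstream one, which adds the triplet in capitals below, had 23 to 30% usage in K562 (median 25), against 90 and 94% in 293T. This was a difference of at least 65.3 points (log2 ratio -4.94 ± 0.27 SE, adjusted p = 0.00236). SRSF7, an SR protein, used the upstream of its acceptors at 84 to 96% in K562, against 48 and 65% in 293T, and lost its call without 293T replicate 2. ERAP2, an aminopeptidase that trims peptides for antigen presentation, used the shorter intron at 55 to 93% in K562 (median 86), against 4 and 7% in 293T. In ERAP2 the panels themselves spread, with 86% in SF3B1 WT, 88 to 93% in SRSF2 WT and 55 to 75% in U2AF1 WT. The inserts of the DGLUCY and TOR1AIP1 forms are shown because they add whole codons.
DGLUCY: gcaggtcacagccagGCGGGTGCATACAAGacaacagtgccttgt
TOR1AIP1: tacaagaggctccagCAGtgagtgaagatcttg

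Retained introns moved most in CD37, a tetraspanin of B cells and other leukocytes. Its intron at chr19:49839043-49840166 (hg19, + strand) was spliced in 82 to 93% of transcripts in K562 (median 91), against 1 and 3% in 293T, a difference of at least 80 points (largest adjusted p = 0.00158 by limma). RPS28, a protein of the small ribosomal subunit, had 71 to 87% of a 249-nt intron spliced in K562, against 9 and 12% in 293T. STAR, which carries cholesterol into mitochondria, had 95 to 97% of a 313-nt intron spliced in K562, against 23 and 32% in 293T. In the other direction, NID2, nidogen-2 of the basement membrane, had 1 to 22% spliced in K562 (median 8), against 91 and 91% in 293T. NID2 passed in 3 of the 8 fits that left out a library (lost without SRSF2 WT replicate 3, U2AF1 WT replicate 1 or 2, or either 293T replicate), with a smallest difference of -76.5 points. MVB12A, a subunit of the ESCRT-I sorting complex, had 36 to 71% in K562, against 95 and 97% in 293T, and lost its call without either 293T replicate (smallest difference -33.5 points).

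Of the 264 cassette exons that differed and matched an annotated exon, 14 (5.3%) were 30 nt or shorter, against 391 of 17077 (2.29%) among all tested. This size class was taken up after its values were seen. Inclusion was higher in K562 in 6 of the 14 and lower in 8. All 12 coding ones were a multiple of 3 in length, and none of those printed here held a stop codon in frame. The exons are printed because their few bases are the whole difference between the isoforms.
NSFL1C: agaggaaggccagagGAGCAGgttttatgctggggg
AP1B1: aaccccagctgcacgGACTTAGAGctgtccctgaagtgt
AP1G1: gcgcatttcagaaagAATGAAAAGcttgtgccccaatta
MTSS1L: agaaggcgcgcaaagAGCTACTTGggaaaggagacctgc
DNM2: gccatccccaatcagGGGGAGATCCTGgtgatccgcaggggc
GK: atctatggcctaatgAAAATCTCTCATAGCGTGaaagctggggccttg
DIAPH1: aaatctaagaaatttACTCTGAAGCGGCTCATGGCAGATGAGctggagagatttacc
SNX14: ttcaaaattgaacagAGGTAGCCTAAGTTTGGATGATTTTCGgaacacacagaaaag
MARK3: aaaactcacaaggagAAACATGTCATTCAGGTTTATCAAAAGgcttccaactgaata

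Adaptor subunits that link clathrin to membranes at the trans-Golgi moved in opposite directions. The 9-nt exon of AP1B1, the beta subunit of adaptor complex AP-1 (chr22:29329712-29329720, - strand), had 60.5% inclusion in the SF3B1 WT library, 43 to 45% in SRSF2 WT and 55 to 56% in U2AF1 WT, against 20 and 21% in 293T. Its difference was at least 23.5 points (log2 ratio 2.09 ± 0.20 SE, largest adjusted p = 0.00701 by limma). The 9-nt exon of AP1G1, the gamma subunit of the same complex (chr16:71767877-71767885, - strand), had 6 to 8% in K562, against 29 and 36% in 293T, and lost its call without 293T replicate 1 (smallest difference -21 points). DNM2 encodes dynamin 2, the GTPase that pinches off vesicles. Its 12-nt exon (chr19:10808569-10808580, + strand) had 69.5 to 74% inclusion in K562 (median 71), against 34 and 37% in 293T (log2 ratio 2.14 ± 0.22 SE, largest adjusted p = 0.0195). It lost its call without 293T replicate 2, with a smallest difference of 32.5 points. The 27-nt exon of SNX14, a sorting nexin of endolysosomes (chr6:85538838-85538864, - strand), had 12.5% in SF3B1 WT, 29% in each SRSF2 WT library and 16 to 21% in U2AF1 WT, against 42 and 56% in 293T. SNX14 passed in 2 of the 8 fits that left out a library (lost without SRSF2 WT replicate 1, 2 or 3, U2AF1 WT replicate 2 or 3, or 293T replicate 1), with a smallest difference of -13 points. Of 53 clathrin and vesicle traffic genes tested, 5 had an event that differed (9.43%, against 4.07% of all named genes). Of their 287 events 5 differed (1.74%, against 1.28% of all events with a gene name).

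MARK3 is a kinase that phosphorylates microtubule-associated proteins, and its 27-nt exon (chr14:103498502-103498528, + strand) had 1 to 11% inclusion in K562, against 70 and 74% in 293T (log2 ratio -5.31 ± 0.47 SE, largest adjusted p = 0.0207 by limma). GK, glycerol kinase, had 4 to 19% of an 18-nt exon in K562, against 51 and 53% in 293T. NSFL1C, the p97 cofactor p47, had 3 to 6% of a 6-nt exon in K562, against 27 and 28% in 293T. MTSS1L, a membrane-bending actin regulator, went the other way, with 52 to 64% of a 9-nt exon in K562 against 15 and 21% in 293T. DIAPH1 encodes a formin that elongates actin filaments. Its 27-nt exon (chr5:141588224-141588250, - strand) had 30.5% in SF3B1 WT, 51 to 53% in SRSF2 WT and 39 to 53% in U2AF1 WT, against 86 and 88% in 293T, a difference of at least 34.7 points (adjusted p = 0.00592). The NSFL1C and DIAPH1 exons passed in all 8 fits that left out a library. MARK3 and GK lost their calls without either 293T replicate, and MTSS1L without SRSF2 WT replicate 1 or 293T replicate 2.

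**Figure D3:**
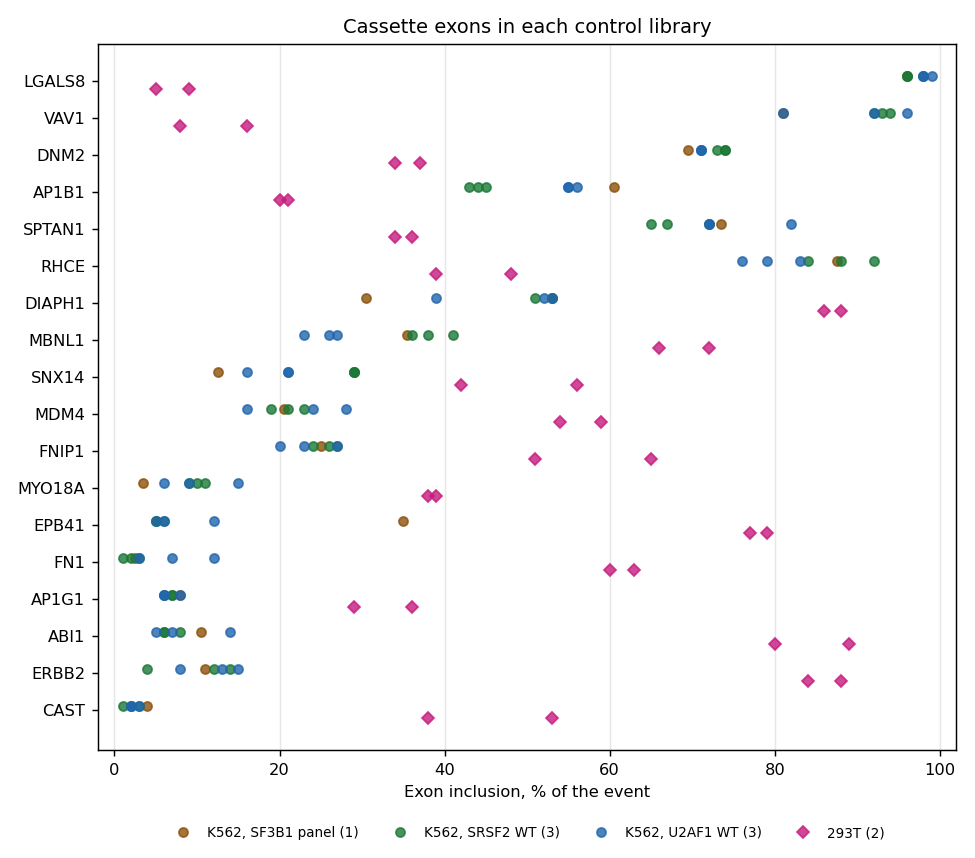
Inclusion of 18 cassette exons in each control library, in percent, with K562 libraries as circles coloured by panel and 293T libraries as diamonds, and the number of libraries in brackets. The lines do not overlap in any row, as in all 614 events that passed the rule and in 9389 (20.6%) of all tested events. The SF3B1 WT library stands apart from the other K562 libraries for EPB41 (35%) and DIAPH1 (30.5%).

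Genes of the red cell membrane skeleton were read next. An event differed in 6 of the 21 tested (28.6%, against 4.07% of all named genes), and among their 146 events 5 were higher and 6 lower in K562 (7.53%, against 1.28% of all events with a gene name). This and the other gene lists were chosen with results of these data known, so their shares are descriptions only. EPB41 encodes protein 4.1R, which joins spectrin to actin. Its 63-nt exon (chr1:29060422-29060484, + strand), which codes for part of the spectrin and actin binding domain, had 35% inclusion in the SF3B1 WT library, 5 to 6% in SRSF2 WT and 5 to 12% in U2AF1 WT, against 77 and 79% in 293T. The difference was at least 43 points (log2 ratio -4.55 ± 0.34 SE, largest adjusted p = 0.0359 by limma). It passed in 2 of the 8 fits that left out a library (lost without SRSF2 WT replicate 1, 2 or 3, U2AF1 WT replicate 2 or either 293T replicate), with a smallest difference of -42 points. In the 293T libraries with a guide against GPATCH8, described below, inclusion of this exon averaged 31%. SPTAN1, nonerythroid alpha spectrin, included a 60-nt exon (chr9:128592983-128593042, + strand) at 65 to 82% in K562 (median 72), against 34 and 36% in 293T, and passed in 1 of those 8 fits, the one without U2AF1 WT replicate 1 (smallest difference over the 8 fits 31 points). ANK1, erythroid ankyrin, had 1 to 4.5% of an exon in K562, against 33 and 41% in 293T, and lost its call without either 293T replicate. RHCE, a Rh blood group protein, had 76 to 92% of a 134-nt exon in K562, against 39 and 48% in 293T, but its reads can be shared with the near-identical RHD, and it passed in 4 of the 8 fits (lost without SRSF2 WT replicate 1, U2AF1 WT replicate 2 or either 293T replicate). ERMAP, an erythroid membrane protein outside that list, used the upstream of a pair of exons at 15.5 to 41% in K562, against 96 and 97% in 293T.

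Targets of the MBNL, RBFOX, CELF and QKI proteins, which switch exons between muscle, neural and undifferentiated cells, had an event that differed in 6 of 26 genes (23.1%, against 4.07% of all named genes). Of their 211 events 1 was higher and 9 lower in K562 (4.74%, against 1.28% of all events with a gene name). MBNL1, itself a splicing regulator, included its 54-nt exon (chr3:152446704-152446757, + strand), which adds to its nuclear localisation signal, at 23 to 41% in K562 (median 35.5), against 66 and 72% in 293T. The difference was at least 30.7 points (log2 ratio -2.15 ± 0.23 SE, largest adjusted p = 0.0255 by limma), and it passed in 3 of the 8 fits that left out a library (lost without any 1 SRSF2 WT or 293T replicate), with a smallest difference of -27.7 points. FN1 encodes fibronectin, whose extra domains are spliced into the form made by tissues and left out of that made by the liver. Its 273-nt exon, the extra domain B, had 1 to 12% inclusion in K562, against 60 and 63% in 293T, and lost its call without 293T replicate 2 (smallest difference -52 points). A further cassette exon of FN1 had 61 to 75% in K562, against 95 and 97% in 293T, and lost its call without SRSF2 WT replicate 3 or either 293T replicate. MYO18A, an unconventional myosin, had 3.5 to 15% of a 45-nt exon in K562, against 38 and 39% in 293T, and lost its call without either 293T replicate (smallest difference -26.5 points). The exons of the MBNL1, SPTAN1, EPB41 and MYO18A events are shown as examples of the longer regulated coding exons.
MBNL1: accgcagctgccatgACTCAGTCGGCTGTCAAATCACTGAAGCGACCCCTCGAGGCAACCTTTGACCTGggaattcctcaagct
SPTAN1: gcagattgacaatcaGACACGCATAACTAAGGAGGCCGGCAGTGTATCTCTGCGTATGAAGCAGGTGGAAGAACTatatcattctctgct
EPB41: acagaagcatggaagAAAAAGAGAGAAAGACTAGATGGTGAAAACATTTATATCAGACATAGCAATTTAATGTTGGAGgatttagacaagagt
MYO18A: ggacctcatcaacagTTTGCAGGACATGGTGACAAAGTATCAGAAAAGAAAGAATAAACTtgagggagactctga

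Genes whose exons switch between epithelial and mesenchymal cells had an event that differed in 6 of 27 (22.2%, against 4.07% of all named genes), with 6 events higher and 7 lower of 240 (5.42%, against 1.28%). CD44, the hyaluronan receptor whose variable exons mark epithelial cells, had 5 events that differed. The shorter intron of its 93-nt alternative 5′ splice site had 94 to 99% usage in K562, against 43 and 72% in 293T, and passed in 4 of the 8 fits that left out a library (lost without any 1 SRSF2 WT replicate or U2AF1 WT replicate 3). One of its exons had 0 to 1.5% inclusion in K562, against 18 and 41% in 293T, and its other 3 exons 97 to 100% in K562, against 77 to 91% in 293T. The first of these 4 exons passed in 4 of the 8 fits (lost without any 1 SRSF2 WT replicate or 293T replicate 2), and the other 3 in 7 (lost without 293T replicate 1), 6 (lost without SRSF2 WT replicate 2 or 293T replicate 2) and 2 (kept without U2AF1 WT replicate 1 or 293T replicate 1), with a lowest difference of 8 points in the last. FNIP1, a folliculin partner in nutrient sensing, had 20 to 27% of an 84-nt exon in K562, against 51 and 65% in 293T (adjusted p = 0.0496). CTNND1, catenin p120 of adherens junctions, had 63 to 70% usage of the upstream acceptor in K562, against 89 and 90% in 293T (adjusted p = 0.0398). FNIP1 passed in the 2 fits without U2AF1 WT replicate 1 and 293T replicate 2 and CTNND1 in the fit without U2AF1 WT replicate 1, with smallest differences of -25.3 and -20 points. CAST, calpastatin, the inhibitor of calpain proteases, had 1 to 4% of a 72-nt exon in K562, against 38 and 53% in 293T, and it passed in all 8. Actin cytoskeleton and adhesion genes, of which CAST is one, had an event that differed in 5 of 46 (10.9%, against 4.07% of all named genes). Of their 273 events 7 differed (2.56%, against 1.28%).

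In BCR-ABL and survival signalling, an event differed in 9 of 48 genes (18.8%, against 4.07% of all named genes), with 3 events higher and 7 lower of 262 (3.82%, against 1.28%). BCR, the fusion partner of ABL1 in K562, had the shorter 3′ untranslated region at 91 to 93% in K562 (median 92), against 58 and 60% in 293T, a difference of at least 32.7 points (log2 ratio 2.87 ± 0.26 SE, largest adjusted p = 0.00986 by limma). ABL1 used the upstream of 2 acceptors 3 nt apart at 70 to 84% in K562, against 93 and 95% in 293T, and lost its call without U2AF1 WT replicate 1 or 2 or 293T replicate 2. Neither the BCR nor the ABL1 event was used as a measure of the fusion transcript. MDM4, a relative of the ubiquitin ligase MDM2, included its 68-nt coding exon (chr1:204537430-204537497, + strand), without which the full-length protein is not made, at 16 to 28% in K562 (median 21), against 54 and 59% in 293T. It passed in 2 of the 8 fits that left out a library (lost without any 1 SRSF2 WT or 293T replicate or U2AF1 WT replicate 1), with a smallest difference of -30.5 points. PTPN6, the phosphatase SHP-1 of blood cells, had 8 to 15% of an exon in K562, against 40 and 49% in 293T. FAS, the death receptor, had 75 to 88% of an 83-nt exon in K562, against 97 and 98% in 293T, and its smallest difference without a library was -9.5 points. PTPN6 passed in the 2 fits without U2AF1 WT replicate 1 and 2, and FAS in that without U2AF1 WT replicate 1.

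No event differed in 28 heme synthesis and iron genes (160 events), 20 haematopoietic transcription factors (104 events), 22 hnRNP and PTBP genes (99 events) or 28 genes of U2 and 3′ splice site factors (117 events) by limma with the rule over 3 panels. With unadjusted p under 0.05 in each panel and the same sign and 10 points, 13, 4, 2 and 0 of these events passed, in that order, against 1959 of 42288 events of all named genes. At the 4.07% of all named genes, lists of this size would hold about 1 gene, so these zeros set no list apart. SR protein genes had 1 of 12, other splicing regulators 1 of 34, neural microexon genes 4 of 42 (among them DNM2, KIF21A and ABI1), PTBP1 targets 1 of 15 and hosts of small nucleolar RNAs 1 of 15. As shares these were 8.33, 2.94, 9.52, 6.67 and 6.67% of genes in that order, against 4.07% of all named genes, and 1 gene makes up the whole count in 4 of the 5. Of their events 1.33, 0.948, 1.6, 1.56 and 1.03% differed, against 1.28% of all events with a gene name. In the last list SNHG17 used the shorter intron at 50 to 67% in K562, against 82 and 83% in 293T, and passed in 3 of 8 fits (lost without any 1 SRSF2 WT or 293T replicate). The lists differ in events per gene, and their members were chosen with results of these data known. Some genes, among them EPB41, MBNL1, CTNND1, MYO18A and ABI1, are counted in several lists.

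**Figure D4:**
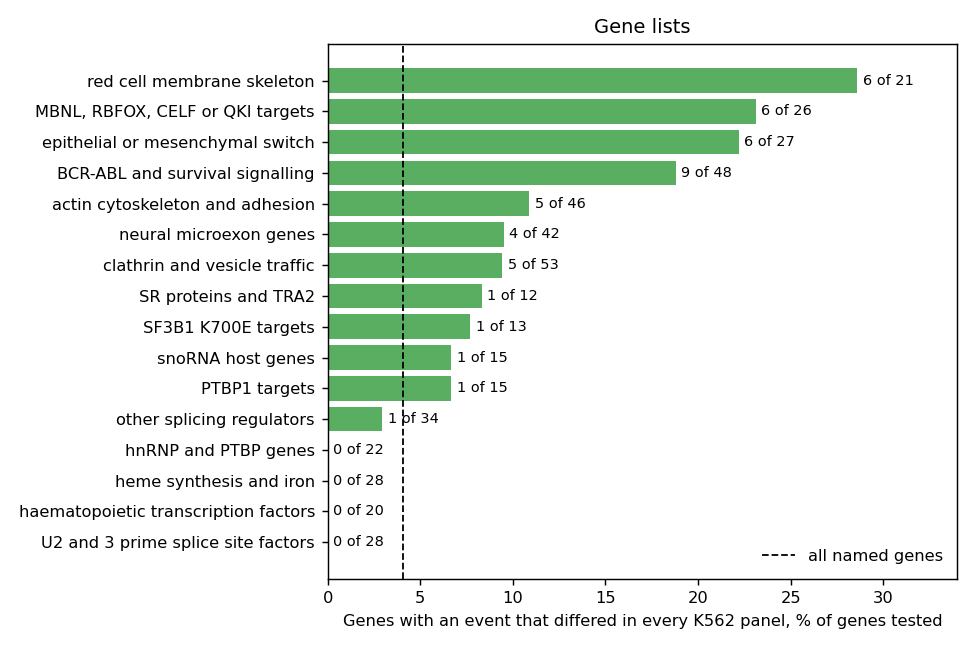
Percent of the tested genes of each list with an event that differed in each of the 3 K562 panels, with counts, and the 4.07% of all named genes as a dashed line. The red cell membrane skeleton list has the highest percent (6 of 21), and 4 lists have none. Lists and members were chosen with results of these data known, and some genes are in several lists.

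Known targets of the SF3B1 K700E mutation were read at baseline, since the series uses both lines to study them. These are genes in which mutant SF3B1 opens cryptic upstream acceptors, but which of the tested events it changes was not determined here. The acceptor events below may therefore not be the affected ones. In those of DVL2, DPH5, CRNDE and MTERF2, and in 1 of the SLC3A2 pairs 3 nt apart, the upstream acceptor was already the main one in both lines. The first of the 3 COASY acceptors had 43% in the SF3B1 WT library and 55% or more in every other library. Of the 13 genes, SLC3A2, the heavy chain of amino acid transporters, had events that differed, and they were at a 5′ splice site and a cassette exon. The shorter intron of its 42-nt alternative 5′ splice site had 30 to 45% usage in K562 (median 34), against 81 and 81% in 293T (log2 ratio -3.00 ± 0.25 SE, largest adjusted p = 0.00701 by limma). The cassette exon had 14.5 to 21% in K562, against 43 and 43% in 293T. Its 2 events with acceptors 3 nt apart did not pass, although one had 71 to 90% in K562, against 38 and 51% in 293T, at least 29 points in each panel (largest adjusted p = 0.297 by limma). The other had 51 to 62% in K562, against 63 and 64% in 293T. The upstream acceptor of TMEM14C, a mitochondrial porphyrin transporter, had 2 to 5% in K562, against 7 and 8% in 293T. DYNLL1, a dynein light chain, had 8 to 10% in K562, against 8 and 9% in 293T. MAP3K7, the kinase TAK1, had 5 to 9.5% in K562, against 2 and 5% in 293T. ORAI2, a calcium channel subunit, had 1 to 9% in K562, against 2 and 10% in 293T, at its event with 3 sites starting 28 nt apart. The 19-nt acceptor pair of PPOX, an enzyme of heme synthesis, had 17 to 24% in K562, against 15 and 16% in 293T. A PPOX event with 3 acceptors had 41 to 57% in K562, against 18 and 35% in 293T, and did not pass either (largest adjusted p = 0.428 by limma). The 10-nt pair of MTERF2, a mitochondrial transcription factor, had 63 to 77% in K562, against 75 and 76% in 293T, and the noncoding RNA CRNDE 74.5 to 90% in K562, against 92 and 92% in 293T. ZDHHC16 (88 nt) had 2 to 7% in K562 against 2 and 2% in 293T, DVL2 (72 nt) 91 to 97% against 95 and 95%, the DPH5 pair 43 nt apart 87 to 95% against 92 and 96%, the COASY event with 3 acceptors 43 to 75% against 55 and 58%, and the BRD9 acceptors 60 nt apart 17 to 31% against 26 and 27%, K562 before 293T each time. None of these acceptor events passed in all panels.

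Features of the exons that the rule did not use were then counted. Of the cassette exons that differed and matched an annotated exon, 153 lay in coding sequence, and 101 of these (66%) had a length that is a multiple of 3, against 4745 of 9669 (49.1%) among all tested coding cassette exons. The median length was 105 nt, against 112 nt among all tested, and 36 (13.6%) lay in a 5′ untranslated region, against 12.8%. For alternative 3′ splice sites 38 of 51 coding segments (74.5%) were a multiple of 3, against 76.5% of all tested, and 42 of 81 (51.9%) were 30 nt or shorter, against 70.2%. These shares are descriptions, without a test, since exons of 1 gene can overlap.

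The rule did not use the libraries with a guide against GPATCH8, so the same contrast was fitted to them: 2 SF3B1 WT, 3 SRSF2 WT and 3 U2AF1 WT libraries of K562 against 4 libraries of 293T. There 1853 of 44628 events (4.15%) differed in every K562 panel. Of the 614 events 533 could be tested, 521 had the same sign in each panel and 405 (76% of the 533, and 21.9% of the 1853) differed in every panel again. The median smallest difference of the 533 was 26.7 points in the sgRenilla libraries and 22.5 points, in the same direction, in the sgGPATCH8 libraries. DGLUCY had 2.5, 3 and 1.67% in the 3 K562 panels, against 95.5% in 293T, and CD37 had 82.5, 92.3 and 93.7% spliced, against 4.25%. The exons of DNM2 and AP1B1 differed again, by at least 38.6 and 31.6 points. The exons of EPB41, MYO18A and MARK3 differed again but by less. Their smallest differences were -20, -11.1 and -26.5 points, against -43, -28.5 and -61.5 points in the sgRenilla libraries. Mean inclusion in these 293T libraries was 31% for EPB41 and 12.75% for MYO18A, against 78 and 38.5% with sgRenilla. The exon of AP1G1 did not pass again, with a smallest difference of -7.25 points, nor did FNIP1 (-10.8), FAS (-14.5), KIF21A (-4.17) and RHCE (28.4). The cell line remains tied to the 293T panel in these libraries too.

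**Figure D5:**
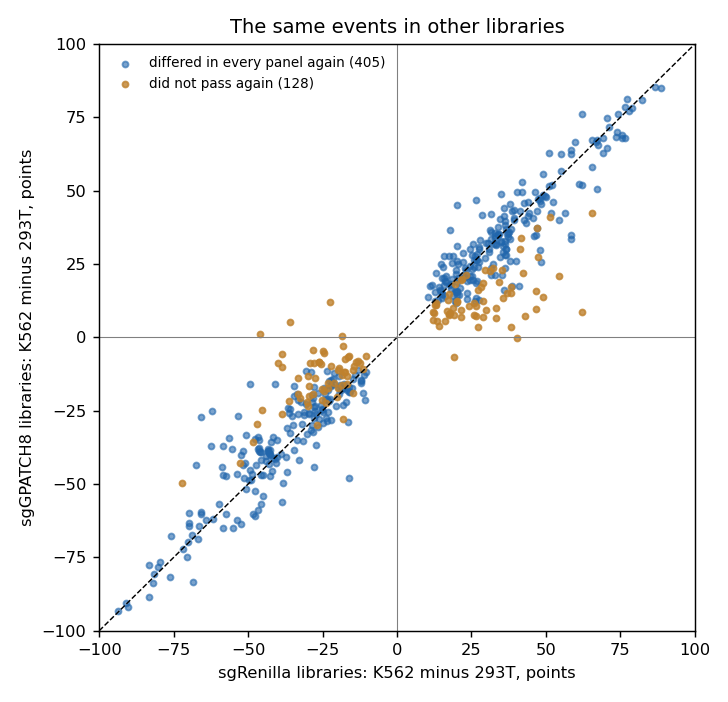
Mean difference K562 minus 293T, in percentage points, of the 533 retested events in sgRenilla libraries (horizontal axis) and sgGPATCH8 libraries (vertical axis), with those that differed in every panel again in blue and the others in brown, and the line of equal values dashed. In 521 of the 533 events the sign is the same in each panel, and 405 differed again.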

How the data were processed

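RNA was poly(A)-selected, made into strand-specific libraries and sequenced as paired-end reads, per the labels' protocols. The authors deposited, for 110818 events per file, the fraction of the isoform listed first, from 0 to 1. RSEM 1.2.4, Bowtie, TopHat2 2.0.8b and TopHat with build hg19 (GRCh37) are named in the submitters' processing notes, without their roles. How fractions were made, and why values are missing, is not given in the sources used here, and the depth is unknown. Of 110816 events with coordinates 92.7% were named from GENCODE 29 (GRCh38). The local shift between the builds was taken from neighbouring events whose intron lengths matched annotated introns. An event was named where splice sites of it, moved by that shift, were annotated exon ends of a gene. The GRCh38 positions given here rest on this shift, and no conversion tool was used. Antisense and near-identical genes (WASHC2A, RHCE) are uncertain.

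Events with a value in all 9 libraries, a group mean of at least 5% and one of at most 95% were fitted as log2((fraction + 0.01)/(1 - fraction + 0.01)) with limma 3.58.1 (R 4.3.3), 1 mean per group and a trended prior, and tested on simulated data. Per panel, an adjusted p under 0.05 and 10 points were needed. Named genes were the 12 highest and 12 lowest by smallest panel difference (1 event per gene), 3 per direction and event type, 4 per gene list and the SF3B1 targets. Short exons, second events of a gene and genes with several events were added after their values were seen. Members and lists were chosen with earlier results of these data known. Exons were read from GENCODE 29 transcripts with Python 3. No paired analysis was the main one, because same-numbered libraries share only a number. The 293T sgGPATCH8 columns were used together, since guides could not be tied to label groups. Some genes are not reported here.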

Additional observations from a re-analysis of the deposited data

How the results depend on the processing

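No result reversed. The 614 events that differed in every K562 panel became 3382 with 1 contrast over the mean of the 3 panels, 1376 with all libraries of the series in the fit and 172 with the replicate block, of which 163 were among the 614. The 1853 events of the sgGPATCH8 libraries became 850 at 20 points. With all libraries in the fit, the events called were 3108 for the SF3B1 WT panel, 6818 for SRSF2 WT and 5398 for U2AF1 WT against 293T, and 2821 (SRSF2 WT minus SF3B1 WT), 1125 (U2AF1 WT minus SF3B1 WT) and 1183 (SRSF2 WT minus U2AF1 WT) between K562 panels. The replicate block gave 363, 2198, 1452, 0, 0 and 0 in the same order, but same-numbered SRSF2 WT and U2AF1 WT libraries did not deviate together (correlations 0.007, -0.022 and -0.02), so they share only a number. At 20 points 2563 (SRSF2 WT) and 1926 (U2AF1 WT) events were called against 293T. Untransformed percentages gave 2309 for the SF3B1 WT panel and 1917, 1168 and 91 between panels. Run 1 of the SF3B1 panel alone gave 2368 for that panel, 2354 for SRSF2 WT minus SF3B1 WT and 812 for U2AF1 WT minus SF3B1 WT. An offset of 0.05 gave 1144, 534 and 27 between panels, and no limit on group means gave 355 (U2AF1 WT minus SF3B1 WT) and 176 (SRSF2 WT minus U2AF1 WT). Leaving out 1 library gave 364 to 765 events that differed in every panel where all 3 K562 panels remained. Without the SF3B1 WT library it gave 2423, with only the SRSF2 WT and U2AF1 WT panels required. Such fits gave 663 to 1626, 2139 to 5601 and 1410 to 4536 for the SF3B1 WT, SRSF2 WT and U2AF1 WT panels. Between panels they gave 147 to 1504, 10 to 345 and 1 to 8. Of 71 events named by the rule, 33 passed in all 8 fits that left out a library and kept the 3 K562 panels, and 25 under every setting. The causes were not tested, and the unknown depth limits every value.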

Other observations

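Some genes differed at several events, and those below were chosen after their values were seen. WARS had 10 such events, mostly pairs of exons listed as mutually exclusive near its start, which share reads. CD37, a tetraspanin of leukocytes, had 4. Besides the intron already described, 2 overlapping or neighbouring introns were spliced in 75 to 91% and 73 to 76% of transcripts in K562, against 2 to 3% and 5% in 293T. An acceptor event of CD37 had 2 to 12.5% usage in K562, against 67 and 82% in 293T, and all 4 events passed whichever library was left out.

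BTK, a kinase of B cell receptor signalling, had 97 to 100% usage at 4 events in K562, against 64 to 86% in 293T. LCP1 had 0 to 0.5% inclusion of 4 further exons in K562, against 8 to 28% in 293T. Of these 4 exons 1 lost its call without any 1 SRSF2 WT replicate or 293T replicate 2 (lowest difference -8 points) and 1 without 293T replicate 2. KYNU, the kynureninase of tryptophan breakdown, included an exon at 5 to 11% in K562, against 64 and 84% in 293T. CSRP1, a LIM domain protein of muscle and other tissues, included an exon at 86 to 98% in K562, against 18 and 56% in 293T. SEPT6, a septin of the cytoskeleton, included an exon at 80 to 94% in K562, against 31 and 39% in 293T. Another SEPT6 exon had 38 to 59% in K562, against 11 and 14% in 293T. The 3 weaker BTK events passed in 1, 2 and 3 of 8 fits that left out a library, the CSRP1 exon in 4 (lost without SRSF2 WT replicate 3, U2AF1 WT replicate 2 or 3, or 293T replicate 1) and the first SEPT6 exon in 2 (kept without U2AF1 WT replicate 1 or 2). The further SEPT6 events, which include the other exon given here, passed in 3, 1 and 3 of the 8 fits. The level of these transcripts in either line is unknown from the files.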
